A study of Mus musculus with 12 samples.

Results

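The genes described here are 47 genes of mitosis, the stretch of the cell cycle in which chromosomes condense, attach to the spindle and are parted into daughter cells. They were taken from a list of names, and each was read from the array's transcript cluster, its unit for a gene, that carries that symbol alone. Where a symbol had several such clusters, the cluster with the highest mean was used. Of the 47 genes, 46 had a cluster, among 15223 symbols and 17829 clusters in all. Ncapg had no cluster with a single symbol, and Sgol1 was found under its present symbol Sgo1. Plk1 alone among them had 1 further, dimmer cluster.

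The study profiled RNA from whole organs of female mice of the Sdl model on 12 Affymetrix exon arrays, 4 per group, each holding RNA pooled from 3 organs. Thymic tumors came from moribund Mcm4 (D573H/+) mice. Pre-leukemic thymus came from Mcm4 (D573H/+) mice at 21 days of age, and wild-type thymus from Mcm4 (+/+) mice at 21 days. Mcm4 belongs to the hexameric helicase that opens DNA at replication forks, and the tumor and pre-leukemic groups both carry 1 copy of the D573H allele. Age, genotype and disease cannot be told apart between tumors and wild-type thymus, nor age and disease between tumors and pre-leukemic thymus.

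Entry into mitosis is driven by Cdk1 with its cyclins and by the Aurora and Polo kinases. The spindle checkpoint holds back the anaphase-promoting complex until every chromosome is attached, and that complex then marks securin and the mitotic cyclins for destruction. Transcripts of these genes are held low in resting cells and peak together late in the cycle, under the DREAM and Myb-MuvB-FoxM1 regulators acting at CHR and CCAAT elements of their promoters. The thymus holds many dividing immature T cells, so these transcripts are readily found there.

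Promoter stretches of 6 of the genes are printed to show those elements. Cdc20 and Cdca8 were higher in tumors, as described further on, while Ccnb2, Cdk1, Top2a and Ube2c did not pass the test in any comparison. The sequences are from RefSeq on GRCm38.p6 and run on the gene's own strand from 100 bases before the annotated start to 30 bases after it. Capitals mark TTTGAA, the CHR element, and CCAAT, the CCAAT box, or their reverse complements TTCAAA and ATTGG. In Cdca8 1 match of each kind shares a base. Cdc20 lies at chr4:118437314-118437443, Cdca8 at chr4:124936888-124937017, Ccnb2 at chr9:70421525-70421654, Cdk1 at chr10:69352883-69353012 and Top2a at chr11:99024160-99024289, all on the minus strand, and Ube2c lies at chr2:164769829-164769958 on the plus strand.
Cdc20: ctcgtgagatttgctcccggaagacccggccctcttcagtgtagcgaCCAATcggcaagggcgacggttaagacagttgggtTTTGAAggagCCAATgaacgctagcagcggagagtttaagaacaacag
Cdca8: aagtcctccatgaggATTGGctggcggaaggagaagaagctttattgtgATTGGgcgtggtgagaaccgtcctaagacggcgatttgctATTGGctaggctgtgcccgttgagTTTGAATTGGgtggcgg
Ccnb2: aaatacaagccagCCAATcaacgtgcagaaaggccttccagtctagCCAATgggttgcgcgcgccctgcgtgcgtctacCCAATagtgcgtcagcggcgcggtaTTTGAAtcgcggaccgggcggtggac
Cdk1: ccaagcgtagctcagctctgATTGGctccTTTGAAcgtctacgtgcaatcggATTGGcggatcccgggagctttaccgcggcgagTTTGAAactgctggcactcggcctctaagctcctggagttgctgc
Top2a: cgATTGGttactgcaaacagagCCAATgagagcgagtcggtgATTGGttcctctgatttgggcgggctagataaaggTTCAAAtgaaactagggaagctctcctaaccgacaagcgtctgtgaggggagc
Ube2c: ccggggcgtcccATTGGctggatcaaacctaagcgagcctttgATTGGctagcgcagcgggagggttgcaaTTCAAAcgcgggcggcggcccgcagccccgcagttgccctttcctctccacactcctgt

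RefSeq gave 44 promoter windows of 300 bases for 40 of the genes, from 250 bases before the start to 50 after it. Both strands were searched. TTTGAA stood in 30 of the 44 windows (68.2%) and in 17.9% of all 32851 windows. It lay within 50 bases of the start in 28 of the 44 (63.6%), and in 4.94% of all windows. CCAAT stood in 33 of the 44 (75%), and in 37.4% of all windows. Both stood in 26 (59.1%), and in 6.95% of all windows. The variant TTCGAA was found in 4 windows (9.09%), and in 1.56% of all. Of the E2F-like letters, TTTCCCGC was found in 0 of the 44 windows, and in 1.07% of all, and TTTGGCGC in 2 (4.55%), and in 0.514% of all. Among the genes that passed the test in tumors, 4 of 6 windows held TTTGAA, against 26 of 38 windows of the other genes. These are matches of letters in a window and do not show that a factor binds there. Tpx2, Kif20a, Ccna2, Incenp, Aurkb and Smc4 were not analysed here for promoters.

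Values below are log2 of the deposited normalized intensity, and differences are differences of those log2 values. A gene is said to have risen or fallen where limma's test gave a Benjamini-Hochberg adjusted p under 0.05 over all 17829 clusters. The labels call the 4 pools of a group biological replicates. Arrays of a group correlated at 0.983 to 0.996 over all clusters, and 0 pairs of arrays held identical values. In bulk tissue, fewer dividing cells and less of these RNAs per dividing cell cannot be told apart.

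In tumors, 9 of the 46 mitosis genes differed from wild-type thymus, 8 higher and 1 lower, by at most 1.39-fold. The 8 that rose were the kinases Aurka, Nek2 and Melk, the checkpoint kinase Bub1b, the anaphase-promoting complex activator Cdc20, and Aurkb, Incenp and Cdca8 of the chromosomal passenger complex. Ccna2, the cyclin A of S phase and early mitosis, fell. The kinetochore, spindle motor, cytokinesis and chromosome structure genes held 0 calls. The 9 called make 19.6% of the 46, while 30.7% of all clusters were called. The 8 that rose make 17.4%, against 16.2% of all clusters, and the 1 that fell makes 2.17%, against 14.5%. Thus the share that rose was near that of the whole array, and the share that fell was below it.

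**Figure D1:**
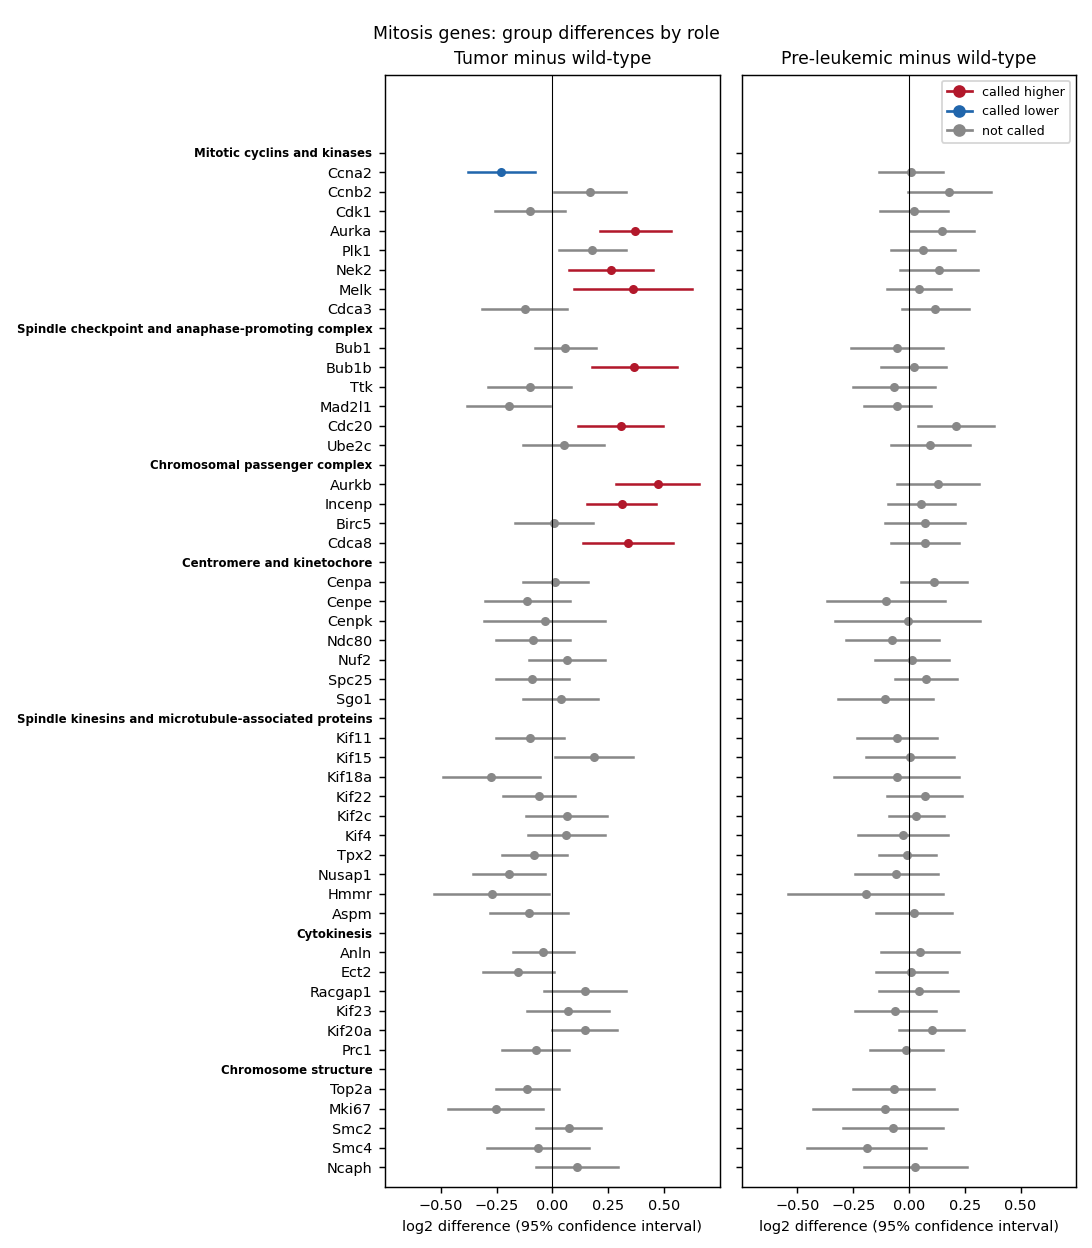
Log2 differences of the 46 mitosis genes, ordered by role, for tumor minus wild-type thymus (left) and pre-leukemic minus wild-type thymus (right), 4 arrays per group. Points are differences and bars their 95% confidence intervals from limma, red for genes called higher, blue for genes called lower and grey for genes not called. All differences of tumors lie between -0.27 and 0.47, and those of pre-leukemic thymus between -0.20 and 0.21.

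The mitosis genes as a whole lay at a like level in tumors and wild-type thymus. Their median log2 difference was 0.01, beside 0.07 over all clusters, and 24 of the 46 differences were positive. The median size of a difference, sign aside, was 0.11 for these genes and 0.20 over all clusters. A difference of 0.5 or more on the log2 scale was seen in 0 of the 46, while 16.5% of all clusters reached it. The mitosis genes are brighter than most clusters, and their median SE was 0.08, beside 0.10 over all clusters. Differences were not set beside those of clusters of like brightness. At an unadjusted p under 0.05 there were 17 of 46 (37%), against 40.7% of all clusters. Tumor and wild-type arrays did not overlap for 17 of the 46 genes, 12 higher in tumors and 5 lower, which is 37% against 34.0% of all clusters, or 26.1% against 18.3% for higher and 10.9% against 15.7% for lower.

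Of the 4 chromosomal passenger complex genes, which correct faulty attachments and steer cytokinesis, 3 rose in tumors and 0 fell. Over all clusters 16.2% rose and 14.5% fell. The median difference of the 4 genes was 0.33. Aurkb, the complex's kinase, read 11.38, 11.33, 11.35 and 11.53 in the tumor pools, 11.03, 11.12, 10.94 and 11.14 in the pre-leukemic pools, and 10.94, 10.98, 10.76 and 11.03 in the wild-type pools. All tumor pools lay above every other pool, while pre-leukemic and wild-type pools overlapped. Aurkb was 0.47 ± 0.08 (SE) higher in tumors than in wild-type thymus, a 1.39-fold difference (limma adjusted p = 0.00262). It was also 0.34 ± 0.09 higher in tumors than in pre-leukemic thymus (limma adjusted p = 0.0289).

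Incenp, the scaffold that binds and activates Aurkb, read 9.44, 9.55, 9.34 and 9.43 in tumors, 9.12, 9.10, 9.21 and 9.30 in pre-leukemic thymus, and 9.15, 9.09, 9.11 and 9.16 in wild-type thymus. The 4 tumor pools were again above the other 8. The difference from wild-type thymus was 0.31 ± 0.07, or 1.24-fold (limma adjusted p = 0.00787). Cdca8, the borealin subunit that helps to place the complex at centromeres, read 9.67, 9.79, 9.52 and 9.86 in tumors, 9.42, 9.38, 9.42 and 9.53 in pre-leukemic thymus, and 9.45, 9.39, 9.27 and 9.36 in wild-type thymus. Tumors lay above all wild-type pools and overlapped 1 pre-leukemic pool. The difference from wild-type thymus was 0.34 ± 0.09, or 1.27-fold (limma adjusted p = 0.0180), and without wild-type pool 3 the adjusted p was 0.0554. Birc5, the survivin subunit, averaged 9.27 ± 0.11 in tumors, 9.34 ± 0.13 in pre-leukemic thymus and 9.27 ± 0.06 in wild-type thymus (SD, n = 4 each), with a tumor difference of 0.01 from wild type.

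**Figure D2:**
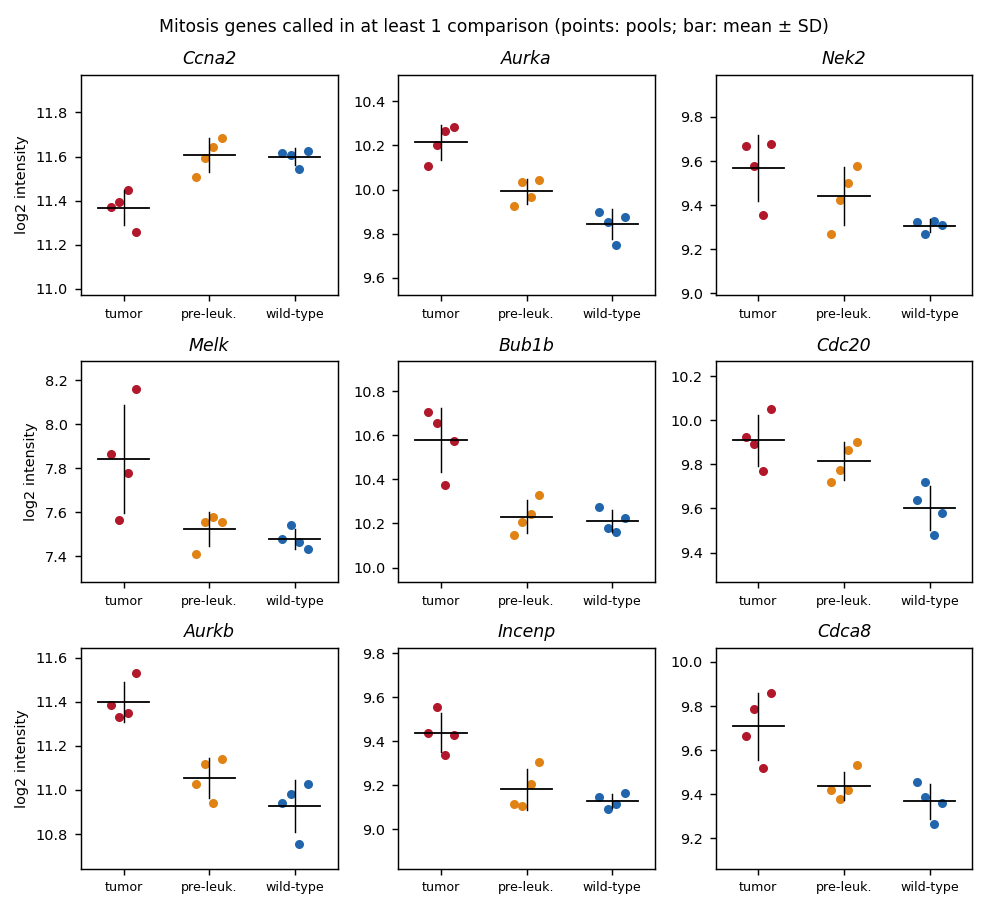
Log2 intensity of the 9 mitosis genes called in tumors against wild-type thymus, 1 panel per gene, with tumor, pre-leukemic and wild-type pools from left to right. Points are single pools, horizontal bars group means and vertical lines 1 SD to each side, 4 pools per group. Tumor points lie above wild-type points in 8 panels and below them for Ccna2.

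Of the 8 cyclins and mitotic kinases, 3 rose in tumors and 1 fell, beside 16.2% and 14.5% of all clusters. The median difference of the 8 genes was 0.17. Aurka, the kinase of centrosomes and spindle poles, read 10.11, 10.20, 10.27 and 10.28 in tumors, 9.92, 10.04, 9.97 and 10.04 in pre-leukemic thymus, and 9.90, 9.85, 9.75 and 9.88 in wild-type thymus. The 3 groups were apart from one another in every pool, with tumors highest and wild type lowest. Aurka was 0.37 ± 0.07 higher in tumors than in wild-type thymus, or 1.29-fold (limma adjusted p = 0.00389). The difference of tumors from pre-leukemic thymus was 0.22 (limma adjusted p = 0.104), and that of pre-leukemic from wild-type thymus was 0.15 (limma adjusted p = 0.764).

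Nek2, a kinase that parts the centrosomes, read 9.67, 9.58, 9.36 and 9.68 in tumors, 9.27, 9.42, 9.50 and 9.58 in pre-leukemic thymus, and 9.32, 9.27, 9.33 and 9.31 in wild-type thymus. Tumor pool 3 lay close above the highest wild-type pool, and the pre-leukemic pools spanned both groups. The difference from wild-type thymus was 0.26 ± 0.08, or 1.20-fold (limma adjusted p = 0.0417). Melk, a kinase of dividing and progenitor cells, read 7.86, 7.56, 7.78 and 8.16 in tumors, 7.41, 7.56, 7.58 and 7.56 in pre-leukemic thymus, and 7.48, 7.54, 7.46 and 7.43 in wild-type thymus. Tumor pool 2 lay next to the wild-type and pre-leukemic pools, and tumor pool 4 was the highest of all. The difference from wild-type thymus was 0.36 ± 0.12, or 1.28-fold (limma adjusted p = 0.0427).

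Ccna2 read 11.37, 11.39, 11.45 and 11.26 in tumors, 11.51, 11.59, 11.64 and 11.69 in pre-leukemic thymus, and 11.62, 11.61, 11.54 and 11.63 in wild-type thymus. All tumor pools lay below the other 8. Ccna2 fell by 0.23 ± 0.07 on the log2 scale in tumors against wild-type thymus, a size of 1.17-fold (limma adjusted p = 0.0279). Ccnb2, a cyclin B partner of Cdk1, averaged 11.89 ± 0.06 in tumors, 11.90 ± 0.13 in pre-leukemic thymus and 11.72 ± 0.09 in wild-type thymus (SD, n = 4 each). Cdk1 itself averaged 10.89 ± 0.10, 11.02 ± 0.10 and 11.00 ± 0.02 in the same 3 groups. Plk1, the Polo kinase, averaged 11.00 ± 0.07, 10.89 ± 0.06 and 10.82 ± 0.06, and Cdca3, which helps to degrade the Cdk1 inhibitor Wee1, 9.97 ± 0.12, 10.21 ± 0.04 and 10.10 ± 0.09. These 4 did not pass the test in tumors against wild-type thymus, with differences of 0.17 (Ccnb2), -0.10 (Cdk1), 0.18 (Plk1) and -0.12 (Cdca3). The dimmer cluster of Plk1 gave 0.22 (limma adjusted p = 0.0748).

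Of the 6 genes of the spindle checkpoint and the anaphase-promoting complex, 2 rose in tumors, beside 16.2% of all clusters. The median difference of the 6 genes was 0.05. Bub1b, the BubR1 subunit of the inhibitor that holds the complex in check, read 10.71, 10.66, 10.38 and 10.57 in tumors, 10.15, 10.20, 10.24 and 10.33 in pre-leukemic thymus, and 10.28, 10.18, 10.16 and 10.22 in wild-type thymus. Every tumor pool lay above the other 8, with tumor pool 3 nearest to them. The difference from wild-type thymus was 0.37 ± 0.08, or 1.29-fold (limma adjusted p = 0.00984), and that from pre-leukemic thymus was 0.35 ± 0.10 (limma adjusted p = 0.0404). Cdc20, which the checkpoint inhibits and which activates the complex, read 9.92, 9.89, 9.77 and 10.05 in tumors, 9.72, 9.77, 9.86 and 9.90 in pre-leukemic thymus, and 9.64, 9.72, 9.48 and 9.58 in wild-type thymus. Tumor pools lay above the wild-type pools and overlapped the pre-leukemic ones. The difference from wild-type thymus was 0.31 ± 0.08, or 1.24-fold (limma adjusted p = 0.0221). The other 4 did not pass the test, with differences from wild-type thymus of 0.06 for the checkpoint kinase Bub1, -0.10 for the checkpoint kinase Ttk, -0.20 for Mad2l1, the Mad2 subunit that binds Cdc20, and 0.05 for Ube2c, the ubiquitin-conjugating enzyme of the complex.

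Leaving out 1 array at a time showed which of these calls stayed under the threshold with fewer arrays. Over all clusters, fits without 1 wild-type pool called 4177 to 4478, and those without 1 tumor pool 4806 to 5545. With every array 5474 were called, so a lost call does not show that it rested on a single pool. Aurka, Aurkb, Incenp and Bub1b kept the call against wild-type thymus in all 8 such fits. Ccna2 lost it without wild-type pool 1, 2 or 4 or tumor pool 4, with differences of -0.26 to -0.19 over the 8 fits. Cdc20 lost it without wild-type pool 1, 3 or 4 or tumor pool 4, with differences of 0.26 to 0.35. Nek2 lost it in 7 of the 8 fits, all but that without tumor pool 3, with differences of 0.23 to 0.33, and Melk in 7, all but that without tumor pool 2, with differences of 0.26 to 0.45. The count of genes that rose was 5 without wild-type pool 1, 4 without wild-type pool 3, 5 without wild-type pool 4 and 5 without tumor pool 4. The count that fell was 0 without wild-type pool 1, 2 or 4, 2 without tumor pool 2 or 3, and 3 without tumor pool 1. Quantile normalization gave 10 higher and 5 lower. The series' posterior criterion adds to the adjusted p a cutoff of 95% on limma's posterior chance of a difference. With it 0 of the 46 were called, while over all clusters 886 of 5474 calls were left. The posterior was computed here with a prior share of changed genes of 0.01, while 30.7% of all clusters were called. Whether the 46 differ from all clusters in this loss was not tested.

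The 7 genes of the centromere and kinetochore, the site where microtubules attach, had a median difference of -0.03 between tumors and wild-type thymus, with 0 calls. Their differences were 0.01 for Cenpa, the histone variant that marks the centromere, -0.11 for Cenpe, a kinesin that carries chromosomes to the spindle's middle, and -0.03 for Cenpk, an inner kinetochore protein. In the Ndc80 complex, which grips the microtubule, they were -0.09 for Ndc80, 0.06 for Nuf2 and -0.09 for Spc25. Sgo1, the shugoshin that shields centromeric cohesin, differed by 0.04. Differences of the 7 ran from -0.11 to 0.06, and those of the passenger complex genes, Birc5 included, from 0.01 to 0.47.

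The 10 spindle motors and microtubule-associated proteins had a median difference of -0.09, with 0 calls. The kinesins gave -0.10 for Kif11, which pushes the poles apart, 0.18 for Kif15, which shares that task, -0.27 for Kif18a, which damps chromosome movements, -0.06 for Kif22, which pushes chromosome arms outward, 0.06 for Kif2c, which shortens microtubules at centromeres, and 0.06 for Kif4, a motor bound to chromosomes. Kif18a had the smallest adjusted p among the 37 genes not called (limma adjusted p = 0.0585). It read 8.81, 8.57, 8.46 and 8.85 in tumors, 8.67, 8.66, 9.11 and 9.15 in pre-leukemic thymus, and 8.97, 8.95, 8.97 and 8.90 in wild-type thymus, so tumors lay below wild type in every pool. The spindle proteins gave -0.08 for Tpx2, the activator of Aurka, -0.20 for Nusap1, which bundles microtubules, -0.27 for Hmmr, which helps to assemble the spindle, and -0.11 for Aspm, which focuses the poles.

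The 6 cytokinesis genes had a median difference of 0.01, with 0 calls. Anln, the anillin scaffold of the contractile ring, gave -0.04, Ect2, which activates RhoA there, -0.15, and its partner Racgap1 0.15. Kif23, the kinesin bound to Racgap1, gave 0.07, Kif20a, a kinesin of the central spindle, 0.15, and Prc1, which bundles the central spindle, -0.07. The 5 chromosome structure genes measured had a median difference of -0.07, also with 0 calls. The condensin subunits gave 0.07 for Smc2, -0.07 for Smc4 and 0.11 for Ncaph, and Top2a, which untangles sister chromatids, gave -0.11.

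Mki67, the Ki-67 protein that coats mitotic chromosomes and is a common marker of dividing cells, read 10.08, 10.08, 9.78 and 10.03 in tumors, 9.86, 9.90, 10.38 and 10.41 in pre-leukemic thymus, and 10.31, 10.15, 10.38 and 10.15 in wild-type thymus. All tumor pools lay below all wild-type pools, and the pre-leukemic pools fell on both sides. The difference from wild type was -0.26 ± 0.09 and did not pass the test (limma adjusted p = 0.0694). Besides the 9 called genes, tumor and wild-type pools did not overlap for Ccnb2, Plk1, Kif15 and Kif20a, with tumors higher, and for Kif18a, Nusap1, Top2a and Mki67, with tumors lower. Over the 37 genes not called, the 95% confidence intervals reached down to -0.53, a 1.44-fold fall, and up to 0.36, a 1.28-fold rise.

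Marker RNAs of several cell types differed between tumors and wild-type thymus, while shares of cells were not measured. The counts of markers are to be read against all clusters, of which 16.2% rose and 14.5% fell in tumors. Of 10 measured marker genes of thymic epithelium, 10 fell in tumors against wild-type thymus, and their summed intensity ran from 10.44 to 11.23 in tumors, from 14.40 to 14.56 in pre-leukemic thymus and from 14.30 to 14.48 in wild-type thymus on the log2 scale. Of 10 T-lineage markers 6 fell and 0 rose, with sums of 14.72 to 14.94 in tumors, 15.18 to 15.36 in the pre-leukemic and 15.27 to 15.38 in the wild-type pools, so the labelled tissue's main lineage was present in every pool. Of 10 macrophage markers 3 rose and 0 fell, with sums of 12.17 to 13.20, 12.44 to 12.62 and 12.26 to 12.47 in the same 3 groups. Calls among B cell markers were 6 lower of 7, among fat markers 7 lower of 7, among fibroblast markers 4 lower of 7, among endothelial markers 4 lower of 8, and among erythroid markers 2 lower and 1 higher of 5. Their part in the differences of the mitosis genes was not tested. Against wild type, pre-leukemic thymus had 0 calls in all 8 marker lists.

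In pre-leukemic thymus, 0 of the 46 mitosis genes passed the test against wild-type thymus, as did 0% of all clusters. The smallest limma adjusted p was 0.764 among the 46 and 0.573 over all clusters. At an unadjusted p under 0.05 there were 2 genes, Cdc20 and Aurka, which is 4.35% against 6.24% of all clusters. The difference was 0.21 for Cdc20, the largest of the 46, and 0.15 for Aurka, the only one whose pools did not overlap between the groups. That is 2.17% of the 46 genes, against 4.43% of all clusters, of which 3.65% were higher and 0.780% lower. The lowest was -0.20 for Hmmr.

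The differences of pre-leukemic from wild-type thymus had a median of 0.02, beside 0.04 over all clusters, and 27 of 46 were positive. By role, the medians were 0.09 for cyclins and kinases, -0.02 for the checkpoint, 0.07 for the passenger complex, -0.01 for kinetochores, -0.02 for spindle motors, 0.03 for cytokinesis and -0.07 for chromosome structure. Ccnb2 gave 0.18, Nek2 and Aurkb 0.13 each, Cdca3 0.12 and Cenpa 0.11. At the other end Smc4 gave -0.19, Sgo1 and Mki67 -0.11 each, and Cenpe -0.10. The 95% confidence intervals of the 46 reached from -0.54, a 1.46-fold fall, to 0.38, a 1.30-fold rise. Leaving out any 1 array also gave 0 calls.

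Between tumors and pre-leukemic thymus, which share the genotype, 2 of the 46 genes passed the test, Aurkb and Bub1b, both higher in tumors. That is 4.35%, against 7.74% of all clusters that were higher, and 0 genes were lower, against 8.27% of all clusters. At an unadjusted p under 0.05 there were 8 of 46 (17.4%), against 28.5% of all clusters. Pools did not overlap for 6 genes (13%), against 21.8% of all clusters. They were Aurkb, Bub1b, Aurka and Incenp, higher in tumors as in 11.6% of all clusters, and Ccna2 and Cdca3, lower as in 10.2%. Differences that did not pass the test were 0.32 for Melk, 0.27 for Cdca8, 0.26 for Incenp, 0.13 for Nek2, 0.09 for Cdc20 and -0.24 each for Ccna2 and Cdca3.

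The median of the 46 differences between tumors and pre-leukemic thymus was -0.01, beside 0.02 over all clusters. By role, the median was 0.26 for the passenger complex, with 1 call, and 0.03 for the checkpoint, with 1 call. It was 0.05 for cyclins and kinases, -0.01 for kinetochores, -0.08 for spindle motors, -0.01 for cytokinesis and 0.08 for chromosome structure, each with 0 calls. Aurkb lost its call without pre-leukemic pool 1 or 3 or tumor pool 1, 3 or 4, with differences of 0.30 to 0.37, and Bub1b in 7 of 8 such fits, all but that without tumor pool 3, with differences of 0.30 to 0.41. The 3 comparisons share arrays pairwise, so their values are not independent of one another.

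Within groups, most of the mitosis genes shared their lowest or highest pool. Their mean log2 level was 10.01, 9.99, 9.90 and 10.02 in the tumor pools, 9.86, 9.89, 10.03 and 10.08 in the pre-leukemic pools, and 9.98, 9.97, 9.91 and 9.95 in the wild-type pools. The SD of these means was 0.06 in tumors, 0.11 in pre-leukemic and 0.03 in wild-type pools, and after quantile normalization 0.05, 0.06 and 0.02, so the wider spread of the pre-leukemic pools over the tumor pools was mostly lost. The median SD of a gene among the 4 pools was 0.0985 in tumors, 0.118 in the pre-leukemic and 0.0523 in the wild-type pools, beside 0.177, 0.174 and 0.0929 over all clusters. Most clusters are dimmer than these genes, and SDs of clusters of like brightness were not computed. Tumor pool 3 was the lowest of its group for 28 of the 46 genes, wild-type pool 3 for 25 and pre-leukemic pool 1 for 25, while pre-leukemic pool 4 was the highest for 31. Over all clusters the same arrays were the lowest for 21.1%, 23.3% and 17.8%, and pre-leukemic pool 4 the highest for 17.7%.

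**Figure D3:**
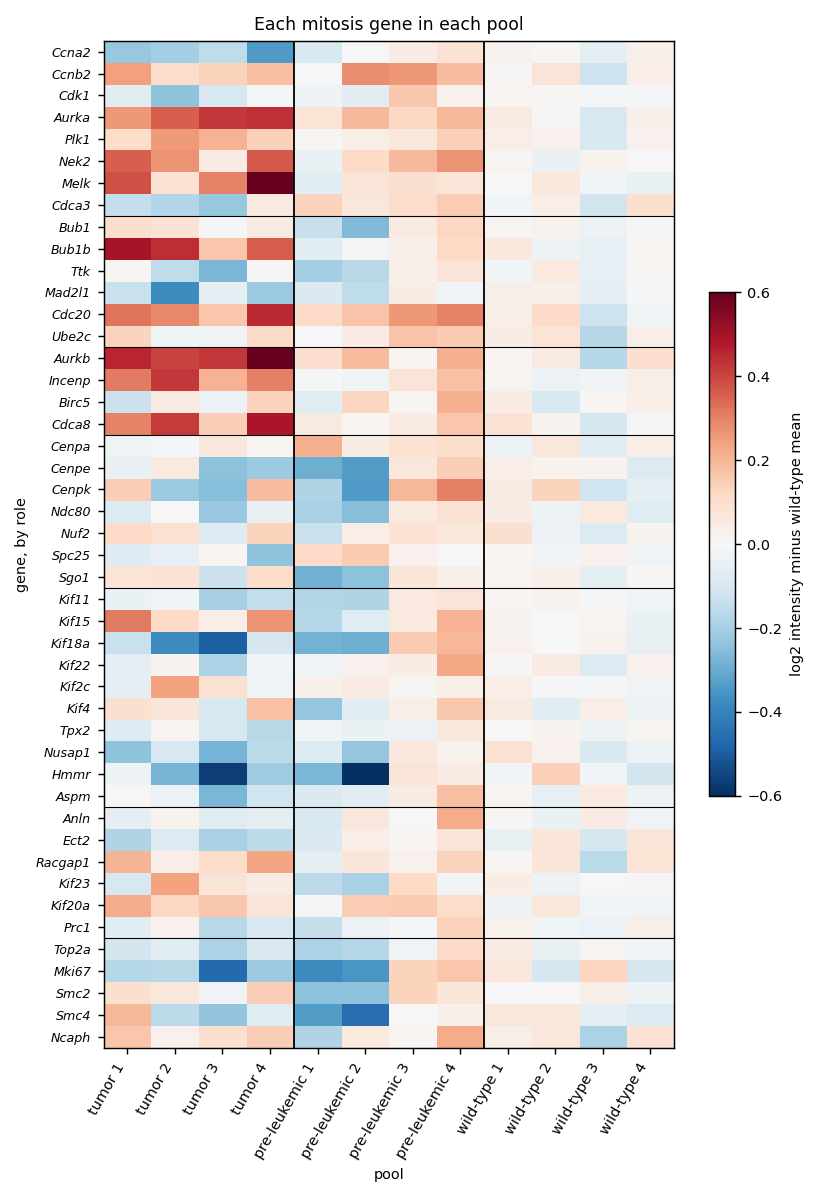
Log2 intensity of each of the 46 mitosis genes (rows, by role) in each of the 12 pools, minus the gene's wild-type mean, with tumor, pre-leukemic and wild-type pools from left to right. Red is above and blue below that mean, and values beyond the scale take its end colour. Pre-leukemic pools 1 and 2 lie below pools 3 and 4 for 30 genes. The genes that rose in tumors, 3 of the passenger complex among them, lie above the wild-type mean in all tumor pools.

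In pre-leukemic thymus, pools 1 and 2 both read below pools 3 and 4 for 30 of the 46 genes (65.2%), against 22.8% of all clusters. The opposite held for 1 gene, Spc25, against 34.2% of all clusters. The gap between the means of pools 3 and 4 and of pools 1 and 2 had a median of 0.14 over the 46 genes and -0.06 over all clusters. It was largest for Mki67 (0.52), Hmmr (0.52), Cenpk (0.51), Kif18a (0.47), Cenpe (0.42) and Smc4 (0.41). Hmmr, for one, read 8.96, 8.60, 9.31 and 9.28 in pre-leukemic pools 1 to 4, against 9.22, 9.38, 9.22 and 9.13 in wild-type pools.

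The width of the intensity range also differed among those arrays. The SD of log2 intensity over all clusters was 2.12, 1.96, 1.99 and 2.10 in tumor arrays, 2.00, 1.92, 2.08 and 2.09 in pre-leukemic arrays, and 2.06, 2.11, 2.02 and 2.02 in wild-type arrays. The 4690 clusters with a mean of at least 9 on the log2 scale, where most of the mitosis genes lie, had a median gap of 0.11. After quantile normalization, which gives every array the same range, pools 1 and 2 read below pools 3 and 4 for 17 of the 46 genes and above them for 4, and the median gap was 0.05. Over all clusters the same orders then held for 22.8% and 22.1%, with a median gap of -0.01. Without the 4 arrays of narrowest range, pre-leukemic pools 1 and 2 and tumor pools 2 and 3, the median difference of pre-leukemic from wild-type thymus was 0.10, with 0 calls. That fit keeps only pre-leukemic pools 3 and 4, which read higher for 30 of the 46 genes, so a higher median follows from that order.

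**Figure D4:**
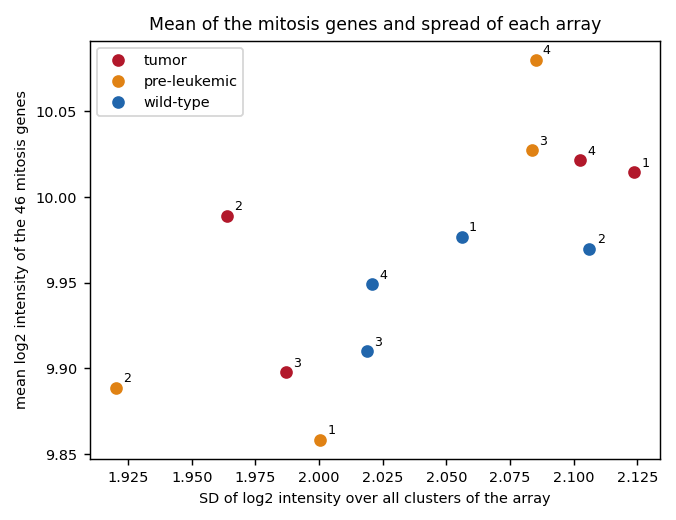
Mean log2 intensity of the 46 mitosis genes in each pool (vertical axis) against the SD of log2 intensity over all clusters of that array (horizontal axis), with tumor, pre-leukemic and wild-type pools in separate colours. Pre-leukemic pools 1 and 2 have the lowest means, 9.86 and 9.89, and SDs of 2.00 and 1.92, below those of pools 3 and 4.

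Other genes of mitosis and its control, outside the 46, included members with wider differences. Across 7 lists of such genes, 130 were measured, of which 31 rose and 21 fell in tumors against wild-type thymus, with a median difference of 0.06. Over all clusters 16.2% rose and 14.5% fell, with a median of 0.07, so the share that fell and the median were near those of the whole array. Cdk5rap2, a centrosome scaffold that anchors the microtubule-nucleating complex, was 1.36 ± 0.11 higher in tumors than in wild-type thymus, or 2.57-fold (limma adjusted p = 4.57e-05). Mad1l1, the Mad1 protein that recruits Mad2 to kinetochores, fell by 0.90 ± 0.06 on the log2 scale (limma adjusted p = 1.65e-05). Against pre-leukemic thymus their differences were 1.29 for Cdk5rap2 and -0.88 for Mad1l1, and both calls held in each fit without 1 array.

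The counts by list are to be read against the same shares of all clusters, 16.2% higher and 14.5% lower. Among the other mitotic kinases, phosphatases and cyclins, 5 of 17 rose in tumors against wild-type thymus and 3 fell. Cdc25a and Cdc25b, phosphatases that activate Cdk complexes, were 0.50 and 0.45 higher, while Cks2, a Cdk-binding subunit, and Ensa, an inhibitor of the phosphatase PP2A, fell by 0.38 and 0.32. Of 7 other checkpoint genes 1 rose and 1 fell, Zwilch of the dynein-recruiting RZZ complex by 0.45 upward and Mad1l1 downward. Of 14 genes of the anaphase-promoting complex and its regulators, the subunit Anapc1 was 0.25 higher and the subunit Anapc13 fell by 0.42. Of 20 other centromere genes 5 rose and 1 fell, among them Cenpu at 0.41 and Cenpb at 0.38, both centromere proteins, and Ska2, which couples kinetochores to microtubules, at -0.43. Of 33 other spindle, centrosome and cytokinesis genes 10 rose and 4 fell, with Gtse1, a microtubule-bound regulator of p53, at 0.64, Depdc1a at -0.41 and the centriole protein Cenpj at -0.40. Of these, Cks2, Ensa, Anapc1 and Cenpu each lost the call in 3 to 7 of the 8 fits without 1 array.

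Of 19 cohesin, separase and other condensin genes, 3 rose and 5 fell, beside 16.2% and 14.5% of all clusters. Espl1, the separase that cuts cohesin, and Cdca5, the sororin that stabilizes it, were 0.39 and 0.36 higher. The cohesin acetyltransferase Esco1 was at -0.48, a call lost in 6 of the 8 fits without 1 array, and the cohesin loader Nipbl at -0.36. The DREAM and Myb-MuvB-FoxM1 list, which also takes in further E2F and Rb family genes, had 20 measured. Of these, 6 rose and 6 fell, beside the same shares. Foxm1, Lin52 and E2f3 had no cluster with a single symbol and were not measured. Mybl2, the B-Myb activator, was 0.65 and E2f1 0.43 higher, while E2f2 was at -0.99 and Rb1, the retinoblastoma protein, at -0.75. E2f1 lost its call without wild-type pool 3 or 4.

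The S-phase list, of genes of the DNA replication step before mitosis, had 20 of 33 higher and 0 lower in tumors against wild-type thymus, beside 16.2% and 14.5% of all clusters, with a median of 0.30. Chaf1b, a subunit of a histone chaperone at replication forks, was 0.86 and Rfc5, a subunit of the clamp loader, 0.68 higher. In pre-leukemic against wild-type thymus 0 genes of the 8 lists passed the test, as did 0% of all clusters, while 32 of 33 S-phase differences were positive, with a median of 0.19. Over all clusters 11029 of 17829 differences were positive, with a median of 0.04. In tumors against pre-leukemic thymus 5 of 33 S-phase genes rose and 1 fell, and across the 130 genes of the other 7 lists 7 rose and 8 fell. Over all clusters 7.74% rose and 8.27% fell, so the counts of the 7 lists did not exceed the shares of the whole array. The S-phase calls included Chaf1b at 0.63, Prim2, a primase subunit, at 0.46 and Uhrf1, a partner of DNA methyltransferase, at -0.33. In the other lists E2f2 was at -1.11, Anapc13 at -0.57, Rb1 at -0.52, Pkmyt1, which inhibits Cdk1, at -0.47, Ska2 at -0.46, Bora, a cofactor of Aurka, at 0.42, Mybl2 at 0.42, Cdc25a at 0.39 and E2f4 at 0.32. Of these, Uhrf1, Rb1, Bora and E2f4 lost the call in 6 or 7 of the 8 fits without 1 array, Pkmyt1 without pre-leukemic pool 1 or 4, and Mybl2 without tumor pool 4. Ska2, Rb1 and Uhrf1 lost the call with median centring. Without the 4 arrays of narrowest range, Ska2, Cdc25a, Prim2, Mybl2, Pkmyt1, Rb1, Bora, E2f4 and Uhrf1 lost theirs. Chaf1b, E2f2 and Anapc13 kept theirs there. That fit, with fewer arrays in both groups, called 853 of all clusters, beside 2855. Its differences included -0.61 for Ska2, 0.40 for Cdc25a, 0.44 for Prim2, 0.53 for Mybl2 and -0.48 for Pkmyt1.

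**Figure D5:**
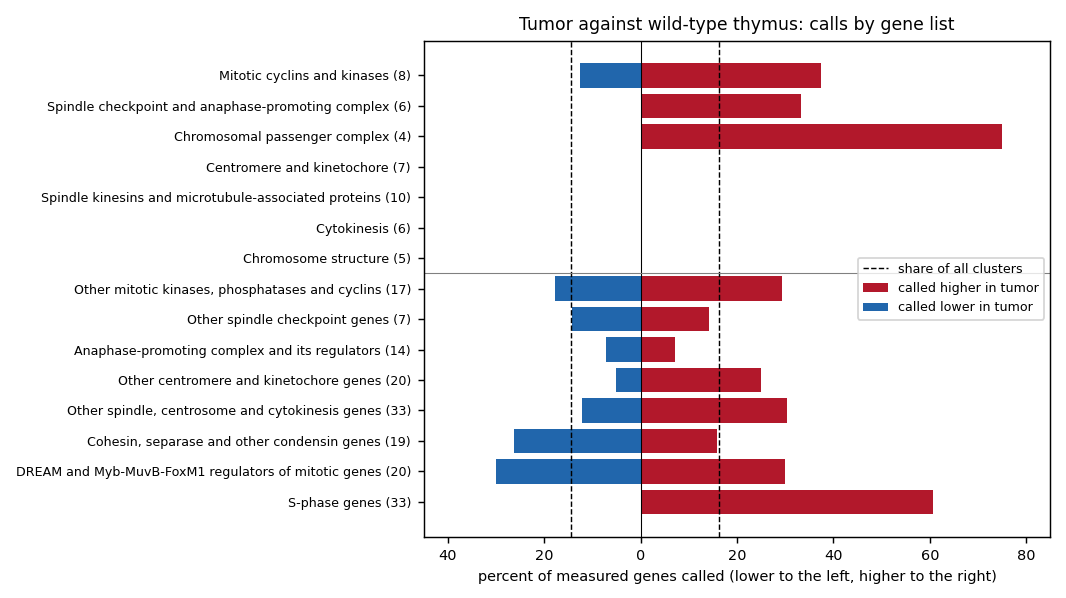
Share of measured genes called higher (right, red) and lower (left, blue) in tumors against wild-type thymus, in percent, for the 7 roles of the mitosis genes (above the line) and for 8 other lists (below it), with the number measured in brackets. Dashed lines mark the shares over all clusters, 16.2% higher and 14.5% lower. The passenger complex has 3 of 4 higher, 4 of the roles have no call, and the S-phase list has 20 of 33 higher and none lower.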

How the data were processed

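Each of the 12 Affymetrix exon arrays, 4 per group, measured RNA pooled from 3 organs. Trizol extraction, RNeasy cleanup, whole-transcript amplification and biotin labelling preceded hybridisation, per the labels' protocols. For every transcript cluster the authors' deposited table holds a normalized intensity on a linear scale, from 6.17 to 24310, with array medians of 186 to 210. The normalization is not given in the sources used here. Another 24 columns of values, under pool names found in no label, were not used. No depth exists for arrays, and their number limits the precision: the median SE of a member's log2 difference between tumors and wild-type thymus was 0.0767.

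Gene symbols came from the platform annotation (1 symbol for 15618 clusters, several for 1370, none for 841). Log2 intensities of the 8 arrays of each comparison were fitted with limma 3.58.1 in R 4.3.3 (lmFit, eBayes with the default prior), two-sided, with no pseudocount and no filter, and p-values were adjusted by Benjamini-Hochberg over all 17829 clusters. The fit was run on simulated data with independent noise. Its pass mark for recovery concerned differences far wider than those of the mitosis genes, so recovery of small differences is not shown. Motifs were searched with Python 3.11.15 in RefSeq promoter windows of GRCm38.p6, and figures were drawn with matplotlib 3.10.9. The alternatives were a pseudocount of 16, a filter at 6 on the log2 scale, quantile normalization, median centring, 1 fit over 12 arrays, a replicate block, a trended robust prior, the series' posterior criterion, averaged clusters and leaving out each array. A fit without the 4 arrays of narrowest range was added after seeing the data, as was quantile normalization for the pre-leukemic pool pattern.

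The members and lists were chosen with earlier results of these data known. Every member is named, members called in any comparison are given by array, and from each other list at most 2 genes called higher and 2 called lower with the largest log2 difference per comparison are named. Genes of the marker lists are given as counts and sums.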

Additional observations from a re-analysis of the deposited data

Results flagged for a closer look

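In 6 of the 138 groups of 4 pools (46 genes in 3 groups) 1 pool stood far from the other 3, with a gap over the group's range above Dixon's critical value at the 95% level. Chance alone picks out about 1 in 20 such groups. In 2 cases it was wild-type pool 3 that read low, at 10.73 for Plk1, with the other wild-type pools at 10.85 to 10.86, and at 10.51 for Ube2c, with the others at 10.72 to 10.76. Cenpe read low in wild-type pool 4, at 9.24 with the others at 9.35 to 9.36, and Kif20a read high in wild-type pool 2, at 10.05 with the others at 9.95 to 9.97. Sgo1 read low in tumor pool 3, at 9.69 with the other tumor pools at 9.90 to 9.93. Melk read low in pre-leukemic pool 1, at 7.41 with the others at 7.56 to 7.58.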

How the results depend on the processing

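No called gene of the 46 and no named gene of the other lists that was called changed direction under any alternative run. Of tumors against wild-type thymus, 8 mitosis genes rose and 1 fell. The count that fell was 2 with a pseudocount of 16 and 2 with the filter at 6 on the log2 scale, and 4 with the trended robust prior. Over all clusters these 3 settings called 5684, 5656 and 5701, beside 5474, the filter testing 14233 clusters. Quantile normalization gave 10 higher and 5 lower, and median centring 7 higher and 1 lower. Over all clusters they called 6683 and 5456. The series' posterior criterion of over 95% left 0 higher and 0 lower, and over all clusters it left 886 of 5474 calls. The causes of these changes were not tested. Leaving out 1 array at a time gave 4 to 8 higher and 0 to 3 lower, with medians of -0.01 to 0.03. Those fits called 4177 to 5545 of all clusters. For pre-leukemic against wild-type thymus every alternative gave 0 higher and 0 lower, with medians of -0.01 to 0.05 without 1 array, and a median of 0.10, beside 0.02, once the 4 arrays of narrowest range were left out. The last of these fits keeps only the pre-leukemic pools that read higher for most of the genes. For tumors against pre-leukemic thymus, 2 rose and 0 fell. Quantile normalization gave 2 lower, the trended robust prior 1 lower, and 1 fit over 12 arrays 6 higher and 2 lower. Over all clusters these 3 settings called 3465, 3146 and 4290, beside 2855. The posterior criterion and the fit without the 4 arrays of narrowest range each gave 0 higher, with 364 and 853 calls over all clusters. Leaving out 1 array gave 0 to 2 higher and 0 to 0 lower, with medians of -0.07 to 0.04 and 1728 to 2606 calls over all clusters. Deviations of samples with the same replicate number correlated with mixed sign, at -0.55 to 0.42. In tumors against pre-leukemic thymus they were 0.42 and 0.25 for replicates 2 and 4, and -0.22 and -0.41 for replicates 1 and 3. The numbers were not taken as pairs. With the replicate block, 5 genes rose and 0 fell in tumors against wild-type thymus, and 0 rose against pre-leukemic thymus. Over all clusters the replicate block called 4210 in tumors against wild type and 2063 against pre-leukemic thymus, beside 5474 and 2855. In tumors against pre-leukemic thymus, the replicate block also ended the calls of Ska2, Bora, Rb1, E2f4, Rfc5 and Uhrf1. No signal over background was analysed here, and the 4 pools per group limit the precision.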

Other observations

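The ordering of the group means showed no common course from wild-type through pre-leukemic thymus to tumor among the 46 mitosis genes. The tumor mean was the highest of the 3 groups for 20 genes and the lowest for 21. The pre-leukemic mean was the highest for 12 and the lowest for 6, and the wild-type mean the highest for 14 and the lowest for 19. Averaged over the 46 genes, log2 intensity was 9.98 ± 0.06 in tumors, 9.96 ± 0.11 in pre-leukemic thymus and 9.95 ± 0.03 in wild-type thymus (SD, n = 4 each).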
